A study of Mus musculus with 15 samples.

Results

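The 72 histone genes of the deposited table were compared between 5 mouse myeloma cell lines. They were taken by name, as every entry that begins with a replication-dependent histone cluster name, a linker histone name, H2AF or H3F3, and they make up 72 of the 32434 entries. Entries whose name ends in the pseudogene suffix -PS (3 of them) were left out. The lines, IL6Myc-1 to IL6Myc-5, came from mice of the IL6Myc genotype, an immunocompetent mouse model of multiple myeloma. Each line was measured in 3 technical replicate libraries of total RNA, 15 libraries in all, with no treatment and no library of normal plasma cells. Each line is thus 1 biological unit, and every p-value below measures only the spread between technical replicates. The labels give neither the promoters behind the IL6Myc genotype nor the age of the mice. Gene names are printed in capitals, as in the table.

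Histones wrap DNA into nucleosomes: H2A, H2B, H3 and H4 form the core, and H1 binds the linker DNA between cores. Most core and H1 genes are replication-dependent. They lie in clusters, are transcribed mainly in S phase, and give short mRNAs without introns that end in a conserved stem-loop, bound by SLBP, in place of a poly(A) tail. Replacement variants such as H1.0 and H3.3 are encoded by single genes outside the clusters, are made through the whole cell cycle and have polyadenylated mRNAs. Some replication-dependent genes can also give longer, polyadenylated mRNAs, as seen in differentiated cells.

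Of the 72 genes, 62 were replication-dependent (5 of H1, 17 of H2A, 16 of H2B, 12 of H3 and 12 of H4), 4 were replacement variants (H1F0, H1F10, H3F3A and H3F3B) and 6 were germ line variants (H1F6, H1F7, H1F8, H1F9, H2AC1 and H2BC1). The H2A variants now named H2AX, H2AZ1 and the like fall outside the naming rule. So do H2AW and H4F16, given at the end, and the 62 need not be every replication-dependent gene. By RefSeq, 51 of the replication-dependent genes are on chromosome 13 and 10 on chromosome 3, and H2BC24 was not matched by name. Transcripts of the GENCODE M21 annotation (build GRCm38) matched 69 of the 72 genes, and the 16-base histone stem-loop was found by its sequence on the transcribed strand of 41 of the 62 replication-dependent genes. Only the longest annotated transcript of each gene was searched. Among the genes without a match, 15 have an annotated 3′ UTR under 100 bases or none, 4 have a longer one and 2 have no matched transcript. The 15 may stop short of the site, so a missing match does not show that a gene lacks the stem-loop. The 6 genes below are shown because the results turn on them, with the stem-loop in capitals and up to 5 bases of the transcript on each side.
H1F2: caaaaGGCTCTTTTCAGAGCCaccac
H2BC8: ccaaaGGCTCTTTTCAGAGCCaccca
H2AC19: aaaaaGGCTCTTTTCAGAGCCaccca
H2BC3: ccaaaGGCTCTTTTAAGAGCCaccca
H4C9: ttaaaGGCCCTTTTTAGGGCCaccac
H4C18: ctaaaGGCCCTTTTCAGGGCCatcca
On GRCm38 these stem-loops are at chr13:23739512-23739527 (plus strand) in H1F2, chr13:23571843-23571858 (plus) in H2BC8, chr3:96239784-96239799 (minus) in H2AC19, chr13:23747203-23747218 (plus) in H2BC3, chr13:22040966-22040981 (minus) in H4C9 and chr13:21831798-21831813 (minus) in H4C18, all within the 3′ UTR. The form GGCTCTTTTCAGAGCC stood in 23 genes, none of them of H4, and each of the 11 H4 genes with a match had a stem that begins GGCC or GGTC. The transcripts differ in what follows. The annotated H1F2 transcript runs on for 840 bases past the stem-loop, that of H2BC8 for 155 and that of H4C9 for 330, whereas those of H2AC19, H4C18 and H2BC3 stop 35, 31 and 23 bases after it.

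The promoters also carried class-specific letters. RefSeq promoters (GRCm38.p6) matched 64 of the 72 genes and gave 65 windows. CCAAT, on either strand, stood in 83.1% of them, against 37.4% of all 32851 windows of that length. By class it was in every window of the replication-dependent H1, H2A, H2B and H3 genes but in 3 of the 11 H4 windows (27.3%), a share below that of all windows. TATAAA stood in 53.8% against 13.6%, and the octamer ATTTGCAT in 21.5% against 1.74%. The octamer, a site known in H2B promoters, was in 42.9% of the H2B windows and 31.2% of the H2A windows, and in none of those of H1, H3 and H4 replication-dependent genes. Windows of adjacent H2A and H2B genes can overlap. The octamer of H2AC8 is the same site as that of H2BC8, and that of H2AC12 the same as that of H2BC12, so these sites count in both classes. AAACACA, known as the H1 box, was in 4 of 5 H1 windows and in 7.18% of all windows. These matches describe letters and not bound sites. The sequences below run up to the start of the gene, with these 4 motifs in capitals, for the replication-dependent gene with the highest level per length (H1F2), the H2B gene with the highest (H2BC8) and the H2B gene that is at once called in IL6Myc-4 and IL6Myc-5 and part of a divergent pair (H2BC23).
H1F2: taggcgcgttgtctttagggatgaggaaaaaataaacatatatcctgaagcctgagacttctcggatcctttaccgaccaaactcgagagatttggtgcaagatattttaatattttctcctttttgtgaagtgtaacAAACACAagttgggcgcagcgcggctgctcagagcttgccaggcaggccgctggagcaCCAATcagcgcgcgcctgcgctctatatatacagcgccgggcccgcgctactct
H2BC8: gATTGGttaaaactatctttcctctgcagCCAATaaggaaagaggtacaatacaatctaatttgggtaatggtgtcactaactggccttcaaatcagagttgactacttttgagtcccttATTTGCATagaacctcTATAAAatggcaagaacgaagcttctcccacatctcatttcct
H2BC23: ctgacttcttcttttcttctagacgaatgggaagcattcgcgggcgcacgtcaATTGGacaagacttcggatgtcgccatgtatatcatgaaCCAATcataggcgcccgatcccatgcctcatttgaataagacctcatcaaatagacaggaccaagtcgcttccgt
They cover chr13:23738557-23738806 (plus strand), chr13:23571221-23571399 (plus) and chr13:21810200-21810366 (minus). The last 2 are whole intervals between divergent starts. Starts of an H2A and an H2B gene faced each other within 164 to 281 bases in 9 pairs, among them H2AC8 with H2BC8 (180 bases) and H2BC23 with H2AC23 (168 bases).

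The libraries held 19068543 to 41165599 estimated counts each, and levels are in CPM, counts relative to library sizes that were scaled by TMM. Summed over 9 plasma cell markers, the libraries held 45400 to 113000 CPM. SDC1, a plasma cell surface proteoglycan, was at 284 to 582 CPM as line means and JCHAIN at 4980 to 10600 CPM. Of the 9 markers, 6 were called across the lines. Against the other lines, 1 was called higher in each of IL6Myc-1, IL6Myc-2 and IL6Myc-4, and 1 lower in each of IL6Myc-2 and IL6Myc-3. Although the library kit is named for total RNA, replication-dependent histone mRNA was a small part of the counts. The 62 genes together held 0.0131% to 0.026% of them, with a median of 0.698 CPM per gene, and 39 of the 62 were below 1 CPM on average. Per kb of the longest annotated transcript their median was 1.08 CPM, against 289 for H1F0, 195 for H3F3A and 457 for H3F3B. Other RNAs that lack a poly(A) tail differed widely among themselves. RN7SK, the 7SK RNA, was at 9.08 to 18.1 CPM, RN7S1, the signal recognition particle RNA, at 9.4 to 29 CPM and RMRP at 0.968 to 1.56 CPM. RNU7, the U7 RNA that guides histone mRNA cleavage, was listed at 0 in all 15 libraries. MALAT1, a long nuclear RNA whose 3′ end is cut without polyadenylation, was at 657 to 1240 CPM. NEAT1, another long nuclear RNA, was at 392 to 1050 CPM, with forms of different 3′ ends not told apart. How far RNA selection, fragment size or the counting method set these levels was not tested.

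The summed level of the 62 replication-dependent genes differed by 1.98 times between the highest and the lowest line. IL6Myc-5 was highest, with libraries at 262, 251 and 267 CPM (260 ± 8.32, SD, n = 3). IL6Myc-3 followed with 216, 207 and 213 CPM (212 ± 4.52). IL6Myc-4 was lowest, with 135, 128 and 131 CPM (131 ± 3.16). The libraries of these 3 lines overlapped with those of no other line. IL6Myc-2 (173, 164 and 172 CPM) and IL6Myc-1 (153, 164 and 166 CPM) overlapped with each other. On library sizes without TMM scaling IL6Myc-2 was at 145 CPM, below IL6Myc-1 at 168 CPM, and its libraries overlapped with those of IL6Myc-4 at 140 CPM. Without H1F2, H2BC4 and H2BC8 the other 59 genes held 34.8% to 43.7% of the sum of a line, at 90.6 ± 3.26 CPM in IL6Myc-5, 81.6 ± 2.39 in IL6Myc-3, 70.4 ± 2.81 in IL6Myc-1, 60.8 ± 1.48 in IL6Myc-2 and 46.7 ± 1.43 in IL6Myc-4. IL6Myc-5 and IL6Myc-3 thus stood closer, and the libraries of IL6Myc-1 lay above those of IL6Myc-2.

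**Figure D1:**
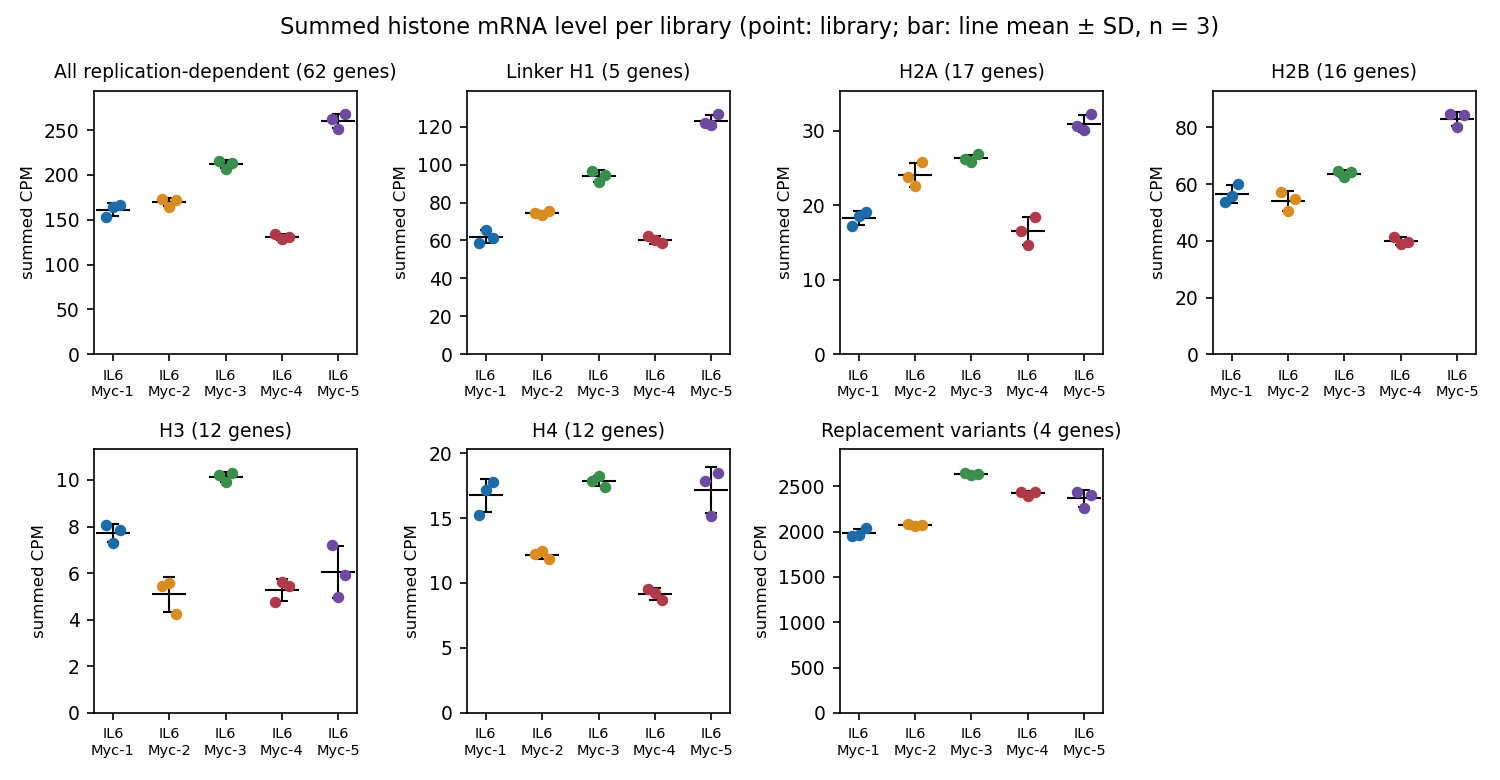
Summed level in CPM (vertical axis, from 0) of the replication-dependent genes together, of each class and of the 4 replacement variants in each library (points), by line (horizontal axis), with the line mean ± SD (n = 3). For all 62 replication-dependent genes IL6Myc-5 lies highest (260 CPM) and IL6Myc-4 lowest (131 CPM), while the replacement variants are highest in IL6Myc-3 (2640 CPM).

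The classes did not share 1 order of lines. H1 genes summed to 123 ± 3.01 CPM in IL6Myc-5 against 60.2 ± 1.89 CPM in IL6Myc-4, and H2B genes to 83.1 ± 2.48 against 39.9 ± 1.42 CPM. H3 genes were instead highest in IL6Myc-3 (10.1 ± 0.205 CPM), where IL6Myc-5 had 6.04 ± 1.11 CPM and IL6Myc-2 5.09 ± 0.747 CPM. H4 genes were at 17.8 ± 0.399 CPM in IL6Myc-3, where IL6Myc-5 (17.2 ± 1.78 CPM) and IL6Myc-1 (16.7 ± 1.31 CPM) overlapped with it, and lowest in IL6Myc-4 at 9.16 ± 0.439 CPM. H2A genes were lowest in IL6Myc-4 (16.6 ± 1.88 CPM) and highest in IL6Myc-5 (31 ± 1.11 CPM). In bulk RNA, fewer cells in S phase and less histone mRNA per such cell cannot be told apart.

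Annotated 3′ ends split the genes unevenly. The 19 replication-dependent genes whose transcript goes on for at least 100 bases past the stem-loop held 67.1% to 70.3% of the replication-dependent counts of a line. H1F2, H2BC8 and H4C9 are among them. The 22 genes whose transcript ends within 100 bases of the stem-loop held 13.4% to 16.5%. Another 4 genes, H2BC4, H2BC21, H2BC22 and H2BC23, have an annotated 3′ UTR of at least 100 bases with no stem-loop match, and held 9.76% to 14%. Per kb of the longest annotated transcript, which includes the extension, the typical gene was not higher in the group with an extension. Its median was 0.932 CPM per kb, against 1.33 for genes that end at the stem-loop and 1.85 for the 4 genes with a 3′ UTR of at least 100 bases and no match. Its median transcript was 1250 bases long, against 484 bases for genes that end at the stem-loop, and CPM grows with length. Where a shorter form is the one made, the length used is too long and the level per kb too low. The medians per kb therefore cannot tell which ends were used. The annotation gives which ends are known, and the reads behind each end were not analysed here.

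**Figure D2:**
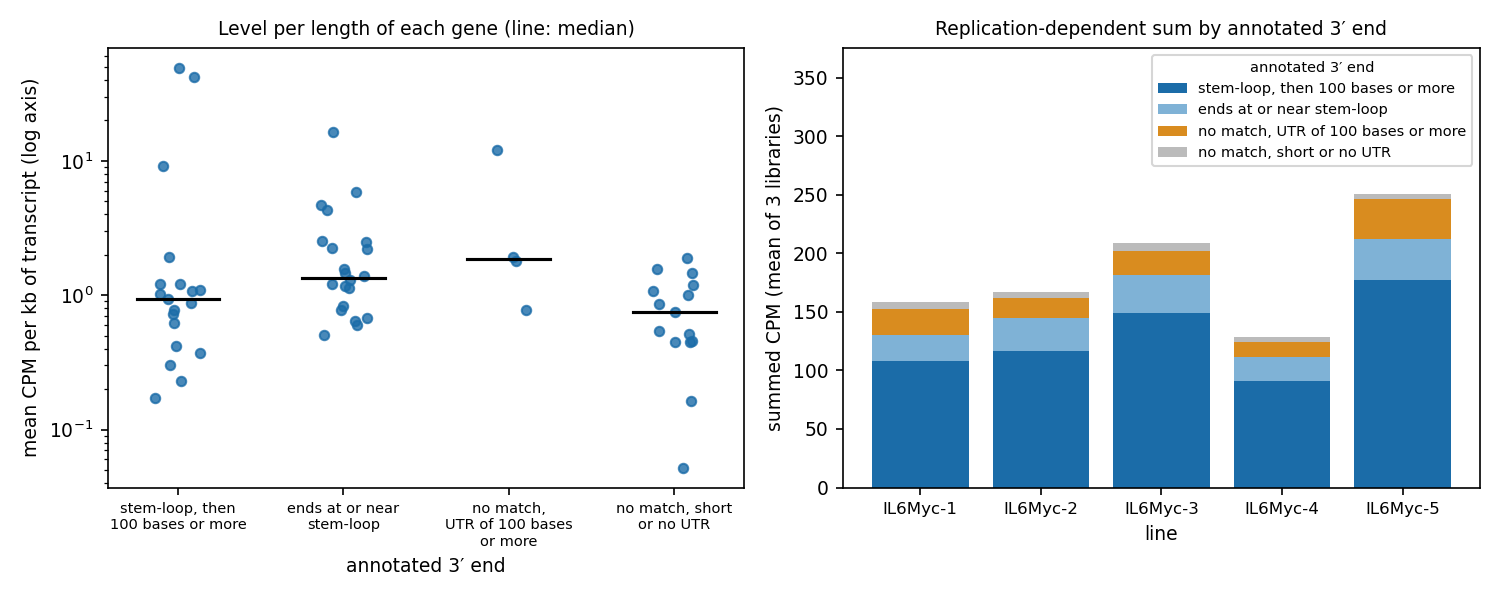
Left, mean CPM per kb of the longest annotated transcript over the 15 libraries (log axis) of each replication-dependent gene (point) by its annotated 3′ end, with the group median (line). In this panel 1 gene at 0 is not drawn. Right, summed CPM per line (mean of 3 libraries) split by annotated 3′ end: genes whose transcript runs on past the stem-loop hold 67.1% to 70.3%, although their median per kb (0.932) is below that of genes that end at the stem-loop (1.33).

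For tests, a gene needed 1 CPM in at least 3 libraries, which 35 of the 72 genes had: 32 replication-dependent genes, H1F0, H3F3A and H3F3B. Since low genes are left out, the counts that follow describe the 35 and not all 72. A gene was called at an adjusted p under 0.05 by edgeR's quasi-likelihood test and a log2 difference of at least 1. Across the 5 lines 18 of the 35 were called (51.4%), where 32.1% of all 11773 genes tested were. At any size of difference 24 of 35 passed (68.6%), below the 91.7% of all genes. Against the mean of the other 4 lines, 4 of 35 were higher in IL6Myc-5 (4.80% of all genes were) and none lower (3.19%). In IL6Myc-4 6 of 35 were lower (4.37%) and none higher (5.28%). In IL6Myc-3 3 were higher (4.60%) and none lower (3.05%), in IL6Myc-1 1 was higher (4.39%) and 1 lower (8.11%), and in IL6Myc-2 none was higher (8.60%) and 1 lower (4.08%). The 4 directions with none called had none by DESeq2 and limma either, and at an unadjusted p under 0.05 by edgeR they held 4 genes higher in IL6Myc-2, 1 lower in IL6Myc-3, 2 higher in IL6Myc-4 and 1 lower in IL6Myc-5.

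Small differences leaned one way in most lines. In IL6Myc-4, 30 of the 35 genes lay below 0, with a median log2 difference of -0.55, beside 50.1% of all genes and a median of 0. In IL6Myc-3, 31 of 35 lay above 0 (median 0.38), and in IL6Myc-1 26 of 35 did (median 0.35). In IL6Myc-2, 25 of 35 lay below 0 (median -0.32). IL6Myc-5 had a median of 0.08 although it had the highest summed level. The filter bears on these shares. H3C14, H2BC3, H3C8, H4C3 and H4C4 reached 1 CPM only in libraries of IL6Myc-1 and IL6Myc-3. They were thus prone to lie above 0 in these lines and below 0 in others, and H4C3 is among the genes called lower in IL6Myc-4. How far this sets the lean was not tested. Between single lines the widest contrast was IL6Myc-4 with IL6Myc-5, where 12 of 35 genes were lower in IL6Myc-4 (5.80% of all genes) and none higher (5.51%). Between IL6Myc-3 and IL6Myc-4, 10 of 35 were higher in IL6Myc-3 (5.61%) and none lower (5.93%).

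**Figure D3:**
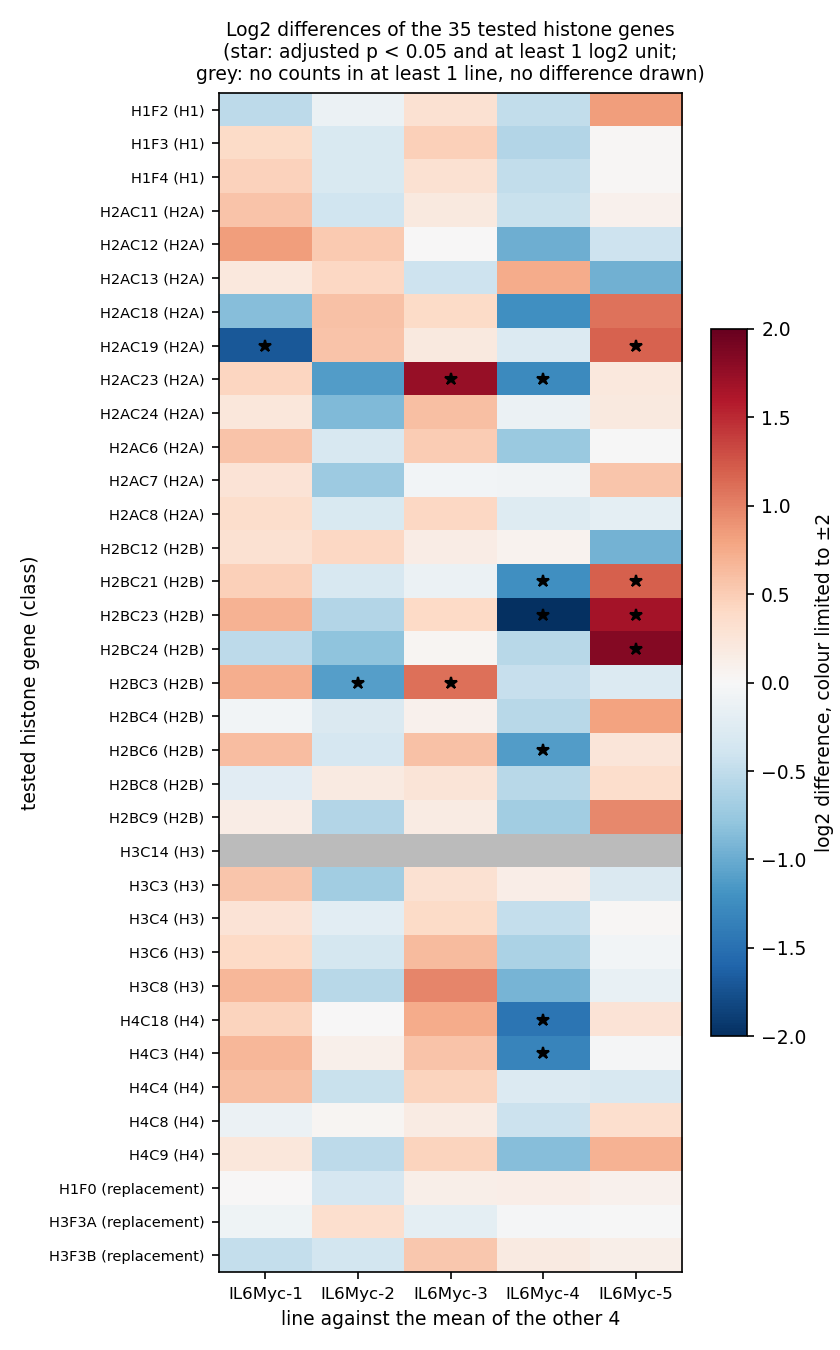
Log2 difference of each of the 35 tested histone genes (rows, with class) in each line from the mean of the other 4 (columns), coloured from -2 to 2, with a star where the gene was called. H3C14, at 0 in 3 lines, is grey and has no difference drawn. The IL6Myc-4 column is mostly below 0 (30 of 35) and the IL6Myc-3 column mostly above (31 of 35).

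The linker histone H1F2 (H1.2) had the highest level per length of the replication-dependent genes, at 49.3 CPM per kb. Its libraries were at 52.1, 58.1 and 55.1 CPM in IL6Myc-1, 69.9, 68.2 and 70.2 in IL6Myc-2, 88.9, 83.8 and 88 in IL6Myc-3, 58.8, 54.8 and 53.9 in IL6Myc-4, and 117, 115 and 121 in IL6Myc-5. The IL6Myc-5 libraries lay above all others, while IL6Myc-1 and IL6Myc-4 overlapped. The log2 difference of IL6Myc-5 was 0.84 (SE 0.04, adjusted p = 6.33e-12), under the size threshold. The other H1 genes tested, H1F3 and H1F4, did not follow it: their log2 differences in IL6Myc-5 were 0.03 (adjusted p = 0.87) and 0.02 (adjusted p = 0.918), and both had a line mean in IL6Myc-3 above that in IL6Myc-5.

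H2BC8, a core H2B gene, was next per length, at 42.1 CPM per kb. Its libraries were at 19.3, 18.3 and 18.8 CPM in IL6Myc-4, below all others, and at 34.4, 27.6 and 31.2 CPM in IL6Myc-5. IL6Myc-5 overlapped with IL6Myc-2 and IL6Myc-3, and the log2 difference of IL6Myc-4 was -0.55 (SE 0.07, adjusted p = 6.51e-06), not called. Its divergent partner H2AC8 stood at 1.93 CPM per kb. H2BC4, another core H2B gene, was at 21.1, 21 and 21.3 CPM in IL6Myc-5 and at 8.86 to 14.5 CPM in the other 12 libraries. IL6Myc-5 was apart from all of them, with a log2 difference of 0.81 (SE 0.07, adjusted p = 2.34e-08), again under the size threshold. Because 45% of the 50-base windows of H2BC8 also occur in H2BC4, reads could be split between them.

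The 4 genes called higher in IL6Myc-5 were H2BC24, H2BC23, H2BC21 and H2AC19, 3 of H2B and 1 of H2A. H2BC24 was at 9.91, 10.2 and 10.3 CPM in IL6Myc-5. The 12 other libraries held 1.22 to 4.04 CPM and did not overlap with these, and the log2 difference was 1.83 (SE 0.16, adjusted p = 7.77e-08). H2BC23 was at 5.01, 4.73 and 4.78 CPM in IL6Myc-5, at 2.61, 3.48 and 2.35 in IL6Myc-1, at 1.72, 1.73 and 0.613 in IL6Myc-2, at 2.53, 1.85 and 2.83 in IL6Myc-3 and at 0.572, 0.735 and 0.422 in IL6Myc-4. It was thus highest in IL6Myc-5 (log2 difference 1.66, SE 0.2, adjusted p = 2.51e-06) and called lower in IL6Myc-4 (-2.16, SE 0.28, adjusted p = 4.54e-06), although 1 library of IL6Myc-2 fell within the range of IL6Myc-4. Another H2B gene, H2BC12 (chosen for mention after its values were seen), went the other way. Its libraries were at 0.7165, 1.275 and 1.517 CPM in IL6Myc-5, below all others. The log2 difference was -0.94 (SE 0.22, edgeR adjusted p = 0.00164), under the size threshold. Of the windows of H2BC12, 66.5% also occur in H2BC23 and 25.8% are its own. Of those of H2BC23, 23.6% also occur in H2BC12. The split of reads between them was not tested.

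H2BC21 showed the same ends of the range. It has the longest annotated 3′ UTR of the 4 genes with at least 100 bases of it and no stem-loop match. Its libraries were at 7.68, 8.71 and 8.42 CPM in IL6Myc-5, and in IL6Myc-4 at 1.89, 2.4 and 2.23 CPM, with the 9 others from 3.28 to 5.91 CPM between them. Both groups lay outside all other libraries, with log2 differences of 1.19 (SE 0.1, adjusted p = 7.59e-08) and -1.22 (SE 0.13, adjusted p = 4.46e-07). By limma on log2(CPM + 1) these were 0.99 and -0.94, just under the size threshold.

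H2AC19 was at 12.2, 14.4 and 17.5 CPM in IL6Myc-5, at 10.5, 10.6 and 10.4 in IL6Myc-2, at 9.66, 9.68 and 6.43 in IL6Myc-3, at 4.36, 6.93 and 8.53 in IL6Myc-4 and at 2.87, 3.06 and 3.12 in IL6Myc-1. IL6Myc-5 lay above all other libraries (log2 difference 1.18, SE 0.15, adjusted p = 4.23e-06) and IL6Myc-1 below all (-1.69, SE 0.19, adjusted p = 5.41e-07). All 50-base windows of H2AC19 also occur in H2AC18, which has 10.8% of windows of its own, so the split between these copies is uncertain. H2AC18 varied within lines, from 0 to 3.72 CPM in IL6Myc-4 alone, and was called in none.

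**Figure D4:**
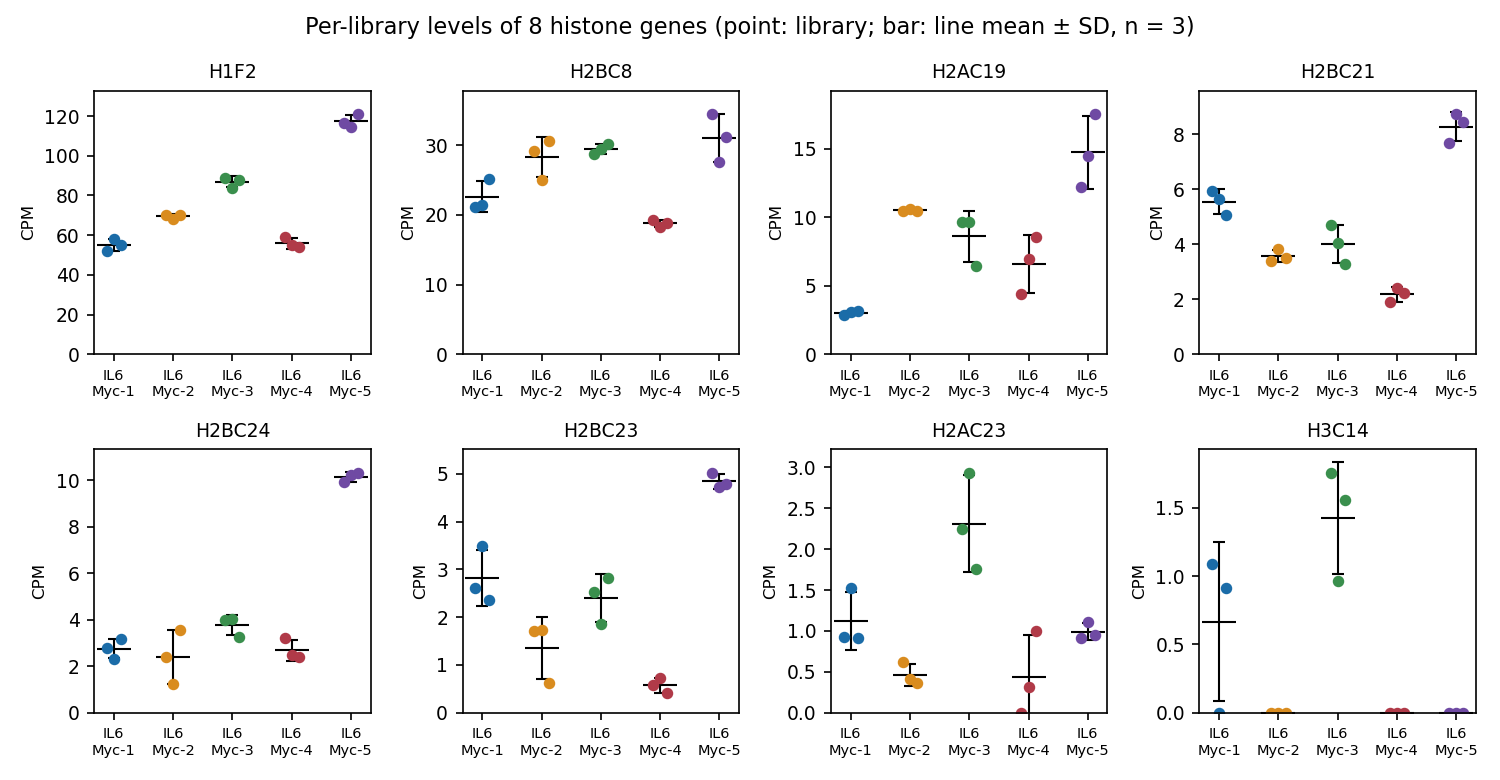
Level in CPM (vertical axes, each from 0) of 8 histone genes in each of the 15 libraries (points) by line (horizontal axis), with the line mean ± SD (n = 3). H1F2, H2AC19, H2BC21, H2BC24 and H2BC23 are highest in IL6Myc-5 without overlap, H2AC23 is highest in IL6Myc-3, and H3C14 is listed at 0 in IL6Myc-2, IL6Myc-4 and IL6Myc-5.

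Of the 6 genes called lower in IL6Myc-4, H2BC23 and H2BC21 are given above, and the others were H4C18, H4C3, H2AC23 and H2BC6. H4C18, an H4 gene whose transcript ends near its stem-loop, was at 0.858, 0.813 and 0.807 CPM in IL6Myc-4 and at 1.59 to 3.26 CPM in the other libraries, without overlap (log2 difference -1.46, SE 0.2, adjusted p = 1.17e-05). H4C3, an H4 gene with an extension of 454 bases, was at 0.393, 0.271 and 0.461 CPM, below the 12 other libraries at 0.557 to 1.3 CPM (log2 difference -1.32, SE 0.27, adjusted p = 0.000556). Both kinds of annotated end were thus represented. H4C18 shares 83.2% of its windows with H4C17, which is listed at 0. The H4 gene with the highest level per length, H4C9, had its lowest mean in IL6Myc-4 too (3.93 ± 0.788 CPM, SD, n = 3, against 9.25 ± 0.925 CPM in IL6Myc-5), but was not called there (log2 difference -0.85). Its IL6Myc-4 libraries (3.03 to 4.53 CPM) overlapped with those of IL6Myc-2 (4.02 to 5.27 CPM).

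The call of H2AC23 in IL6Myc-4 was unstable. Its libraries were at 0, 0.31 and 0.999 CPM there, overlapping with IL6Myc-2 (0.621, 0.407 and 0.368 CPM), for a log2 difference of -1.28 (SE 0.5, adjusted p = 0.041). Leaving out IL6Myc-4 replicate 1 gave -0.67, leaving out IL6Myc-4 replicate 2 gave -1.09 with an adjusted p of 0.14, and the call was also lost without IL6Myc-1 replicate 2, IL6Myc-2 replicate 1, IL6Myc-3 replicate 2 or IL6Myc-5 replicate 2. H2BC6 (chosen for mention after its values were seen) was at 1.18, 0.658 and 0.499 CPM in IL6Myc-4 and 0.797 to 2.28 CPM elsewhere, an overlap (log2 difference -1.11, SE 0.27, adjusted p = 0.00214).

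In IL6Myc-4 a marker list for myeloid cells was also high, with a summed level of 467 to 517 CPM against 73.7 to 122 CPM in the other lines. Nearly all of it was C1QB (490 ± 25.9 CPM). Of the 8 markers the defining genes LYZ2 and C1QA were listed at 0 in all 3 libraries of that line, and CD14 and CSF1R were at 0.0257 and 0.0129 CPM. The 3 tested, C1QB, ITGAM and MPO, were each called across the lines. In IL6Myc-4, 1 of them was called higher and 0 lower. The summed level of 7 T and NK cell markers was 24.9 to 25.8 CPM in IL6Myc-4 and 1.37 to 20.1 CPM elsewhere, with CD3E at 0.0119 CPM. The 2 tested, CD3D and CD3G, were both called higher in IL6Myc-4 (median log2 difference 2.09) and in IL6Myc-2 (2.17). The part of other cells in the histone result was not tested.

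IL6Myc-3 had 3 genes called higher. H2AC23 was at 2.24, 2.93 and 1.75 CPM there and at 0 to 1.53 CPM in the 12 other libraries, without overlap (log2 difference 1.74, SE 0.38, adjusted p = 0.000958). Its divergent partner H2BC23, which shares the interval printed above, was instead highest in IL6Myc-5. H2AC23 has 6.5% of windows of its own, and 93.5% are shared with H2AC24, so its level depends on how the counting split such reads. H2BC3 was at 1.18, 1.22 and 1.53 CPM in IL6Myc-3, which overlapped with IL6Myc-1 (0.947, 1.07 and 1.25 CPM), and at 0.525, 0.305 and 0.307 CPM in IL6Myc-2. It was called higher in IL6Myc-3 (log2 difference 1.1, SE 0.21, adjusted p = 0.00031) and lower in IL6Myc-2 (-1.1, SE 0.28, adjusted p = 0.00274). These calls sat at the size threshold: the first became 0.97 without IL6Myc-3 replicate 3, and the second -0.95 or -0.98 without IL6Myc-2 replicate 2 or 3.

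H3C14, an H3 gene on chromosome 3, was at 1.75, 0.965 and 1.56 CPM in IL6Myc-3 and at 1.09, 0 and 0.913 CPM in IL6Myc-1. It was listed at 0 in all 9 libraries of IL6Myc-2, IL6Myc-4 and IL6Myc-5. Against the largest floor of these lines (3 counts over the line, 0.0527 CPM) the level was at least 27.1-fold higher in IL6Myc-3 and at least 12.6-fold higher in IL6Myc-1. The gene was called higher in both by edgeR (adjusted p = 0.000207 and 0.00185), the second not by DESeq2 (adjusted p = 0.0725). Only libraries of IL6Myc-3 and IL6Myc-1, where it is high, carried it past the filter of 1 CPM in 3 libraries. It is 1 of the 3 genes counted as higher in IL6Myc-3 and the 1 in IL6Myc-1. H2BC3, another of the 3, also reached 1 CPM only in libraries of IL6Myc-3 and IL6Myc-1. These counts are thus not free of that selection. An exact 0 beside a library with signal can be a failed estimate: 34.7% of its windows occur in H3C15, which had 31 counts in IL6Myc-5, 1 in IL6Myc-2 and 5 in IL6Myc-4, beside 5 in IL6Myc-1 and 26 in IL6Myc-3. Whether reads of the one were assigned to the other was not tested.

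Replacement variants were far more deeply counted, and none of the 3 tested was called in any line by edgeR, DESeq2 or limma, though at an unadjusted p under 0.05 by edgeR 2 of 3 were lower in IL6Myc-1, 2 lower and 1 higher in IL6Myc-2, 2 higher and 1 lower in IL6Myc-3, and 2 higher in IL6Myc-4 and in IL6Myc-5. H1F0, the H1.0 linker histone of differentiated and resting cells, was lowest in IL6Myc-2, with libraries at 472, 503 and 492 CPM, below all others (log2 difference -0.34, SE 0.04, adjusted p = 3.75e-07). H3F3A and H3F3B encode the same H3.3 protein, yet their order of lines differed. H3F3A was highest in IL6Myc-2, at 655, 687 and 648 CPM, above all others (0.33, SE 0.03, adjusted p = 8.77e-08), and lowest in IL6Myc-3, at 497, 507 and 478 CPM. H3F3B was highest in IL6Myc-3, at 1518, 1502 and 1535 CPM, above all others (0.54, SE 0.04, adjusted p = 1.76e-09), and at 822 to 963 CPM in IL6Myc-1 and IL6Myc-2, which overlapped. H1F10 had 3 counts over all 15 libraries. The 6 germ line genes summed to 0.229 to 0.512 CPM by line, nearly all from H1F8, the oocyte linker histone, with 133 counts in all. H1F7, H1F9 and H2BC1, like the replication-dependent H4C17, had no count in any library.

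Genes that make and handle histone mRNA and protein were taken from lists. Of 36 genes of histone mRNA transcription and 3′ end processing, 35 were tested and none was called in any line by edgeR, DESeq2 or limma. Smaller differences were common: 6 to 20 of the 35 passed an unadjusted p under 0.05 in each line and direction. Across the 5 lines 34 of the 35 passed at any size and 1 was called, CCNE1, the cyclin E1 that drives entry into S phase, at 135 ± 3.11 CPM in IL6Myc-3 and 65.7 ± 2.28 CPM in IL6Myc-5 (edgeR adjusted p = 2.62e-11). SLBP, which binds the stem-loops printed above, was highest in IL6Myc-5 at 64.9 ± 0.845 CPM and lowest in IL6Myc-2 at 42 ± 1.3 CPM. NPAT, the coactivator of histone gene transcription, was at 34.5 to 44.7 CPM as line means, LSM11, a subunit of the U7 particle, at 14 to 19.7 CPM, and CASP8AP2, a histone locus body protein, at 22.3 to 35.5 CPM. Of 30 S phase and replication genes, all tested, none was called in any line by the 3 tools, with median log2 differences of 0.16, -0.33, 0.26, -0.07 and -0.05 in IL6Myc-1 to IL6Myc-5. At an unadjusted p under 0.05, 22 of them were higher and 1 lower in IL6Myc-3, 1 higher and 27 lower in IL6Myc-2, 17 higher and 8 lower in IL6Myc-1, 3 higher and 14 lower in IL6Myc-4 and 5 higher and 8 lower in IL6Myc-5. Across the lines 29 of the 30 passed at any size, and CCNE1, which is on this list too, was the 1 called. In IL6Myc-4 the median of these genes was thus near 0, where that of the histone genes was -0.55. Whether the gap is beyond the spread was not tested.

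Of 28 tested chaperones and assembly factors, 1 was called in any line, by each of the 3 tools, and across the lines 25 passed at any size and 2 were called. ANP32E, which removes the variant H2A.Z from nucleosomes, was at 680 ± 25.7 CPM in IL6Myc-5 and at 132 to 196 CPM as means of the other lines (log2 difference 2.02, SE 0.04, n = 3 per line). UBN2, a partner of the HIRA complex that deposits H3.3, was called across the lines and highest in IL6Myc-2 (53.4 ± 4.95 CPM); it and CCNE1 were chosen for mention after their values were seen. H2AZ1, which encodes H2A.Z.1, was lowest in IL6Myc-5 at 312 ± 24 CPM and highest in IL6Myc-1 at 527 ± 7.44 CPM, not called. ANP32E lies near the chromosome 3 histone cluster, which led to the values of its neighbours (chosen after the value of ANP32E was seen).

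Along chromosome 3, in the gene order of RefSeq (GRCm38.p6), 19 of the 20 nearest tested genes before the histone cluster were called higher in IL6Myc-5, with a median log2 difference of 1.99, and none of the 20 nearest after it was (median -0.31). Of all 542 tested genes of chromosome 3 other than these histones, 55 were called higher in that line. Among the 20 were BOLA1, the nearest, at 56 CPM (log2 difference 1.56), SF3B4, a splicing factor subunit, at 257 CPM (1.94), and MCL1, a survival factor of the BCL2 family, at 1900 CPM (1.75). ADAMTSL4 (0.57) was the exception. Just past the cluster, POLR3GL, a polymerase III subunit gene, was at 24.8 CPM (0.08) and not called. Within the cluster the genes are given in the same order. The first gene, H2AC21, was near 0 in every line. H2AC20 (0.7 CPM in IL6Myc-5 against at most 0.379 as a mean of another line), H2BC21 (8.27 against 5.54), H3C15 (0.45 against 0.316), H2AC19 (14.7 against 10.5) and H2AC18 (5.59 against 4.28) had their highest mean in IL6Myc-5. The libraries of H2AC20, H2BC21 and H2AC19 in IL6Myc-5 lay above all others. Those of H3C15 (0.159 to 0.607 CPM) overlapped with IL6Myc-3 (0.286 to 0.371 CPM), and those of H2AC18 (4.13 to 7.68 CPM) with IL6Myc-2 and IL6Myc-3, the latter up to 6.57 CPM (log2 difference 1.09, adjusted p = 0.0593, not called). From H3C14 on the highest mean was in another line: H4C14 was at 0.699 CPM against up to 1.01 in another line, H3C13 at 0.0929 against 0.302 and H2BC18 at 0.168 against 0.284. Several of these genes hold few counts and were not tested. Copies on both sides of H3C14 also share sequence. Of the windows of H3C15, 63.5% occur in H3C14, and of those of H3C13, 79.7% occur in H3C15. Where within the cluster the order turns thus depends on how reads were split, which was not tested. Together the 10 chromosome 3 genes summed to 30.7 ± 1.4 CPM in IL6Myc-5 against 11.7 ± 1.86 CPM in IL6Myc-4. The 51 genes on chromosome 13 summed to 219 ± 7.66 CPM in IL6Myc-5 against 117 ± 2.87 CPM in IL6Myc-4, so the order of these lines was the same without chromosome 3. Around the chromosome 13 cluster no like run was seen: 1 of the 20 nearest tested genes before it and 3 of the 20 after it were called higher in IL6Myc-5.

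**Figure D5:**
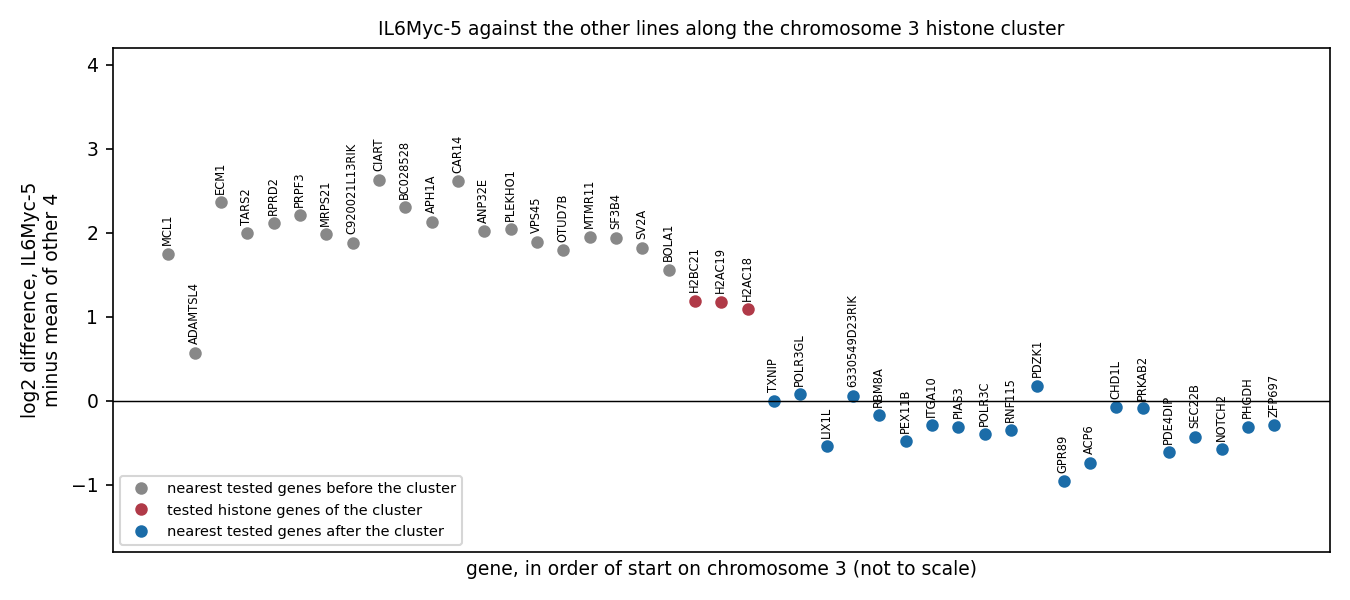
Log2 difference of IL6Myc-5 from the mean of the other 4 lines (vertical axis) for the 20 nearest tested genes before the chromosome 3 histone cluster (grey), 3 tested histone genes of the cluster (red; H3C14, at 0 in 3 lines, is not drawn) and the 20 nearest tested genes after it (blue), in gene order (horizontal axis, not to scale). Genes before the cluster lie near 2 (median 1.99), the histone genes near 1, and those after it near 0 (median -0.31).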

How the data were processed

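Per the labels' protocols, an RNeasy mini kit (extraction) and TruSeq Stranded Total RNA (libraries) were used. The submitters' processing notes name Trim Galore 0.4.0, the build GRCm39 and DESeq2, whose version they leave out. Which aligner, quantifier and annotation made the values is not given in the sources used here. Although the file is named for TPM, its deposited columns were taken as estimated counts: they sum to different totals (19068543 to 41165599), and 30.8% to 54.3% of values above 0 and under 1.5 lie within 0.02 of 1. How reads shared by near-identical histone genes were split is not given either.

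The estimated counts were rounded to whole numbers and fitted in edgeR 4.0.16 (R 4.3.3) over all 15 libraries, with the line as the single factor, TMM scaling (factors 0.848 to 1.08) and genes of at least 1 CPM in 3 libraries (11773). Benjamini-Hochberg adjustment ran over all genes tested. Each line was set against the mean of the other 4, and the lines against each other; these contrasts share libraries. On simulated counts for IL6Myc-5 against the other 4 lines (11470 genes) 48 of 50 genes with a log2 difference of 1 were significant with the right sign and 25 were called. At 1.5 all 47 were called. The changed genes were drawn from all genes tested, whatever their level, and were not split by level. These shares thus need not hold for histone genes near 1 CPM or with a wide spread, such as H2AC18 (log2 difference 1.09, SE 0.47 in IL6Myc-5). An uncalled histone gene is not shown to be unchanged. Replicates differed by more than sampling noise and were kept as 3.

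The members and gene lists were chosen with earlier results of these data known. The rule for naming took the 3 highest members of each class by mean CPM, up to 3 called members per line and direction, replacement and germ line members, up to 4 called genes of each list and line, and SLBP, NPAT, LSM11 and CASP8AP2. Of these, H2AC6 (called across the lines, log2 range 1.04), H3C4 and H4C8 are not described. Other genes are marked as chosen later or are named beside these, as partners, neighbours, copies, markers or genes of the same class or list. Transcripts and stem-loops came from GENCODE M21 and promoters from RefSeq, both on GRCm38 builds, and were matched by name. Alternatives were other scalings, tests and filters, a replicate block, each library left out, and near-identical copies summed (added after seeing the data).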

Additional observations from a re-analysis of the deposited data

How the results depend on the processing

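The counts of called histone genes kept within 1.5 times under DESeq2 size factors and with near-identical copies summed, an alternative chosen after seeing the data. With the replicate block all 11 counts were as in the unblocked fit (18 across the lines, 6 lower in IL6Myc-4, 4 higher in IL6Myc-5); same-numbered libraries did not deviate together (median correlation 0.005 across genes, -0.08 to 0.11), and 7 of 15 libraries correlated best with their own number. By DESeq2, 0 were higher in IL6Myc-1 and 2 lower in IL6Myc-2. By limma on log2(CPM + 1), which shrinks low genes, 11 differed across the lines, 0 were higher in IL6Myc-1, 0 lower in IL6Myc-2, 1 higher in IL6Myc-3 and 2 lower in IL6Myc-4. Without the filter (68 members tested) 2 were higher in IL6Myc-1, 2 lower in IL6Myc-2 and 1 lower in IL6Myc-5. At 5 CPM in 3 libraries only 10 members were tested: 6 differed across the lines, 0 were higher in IL6Myc-1, 0 lower in IL6Myc-2, 0 higher in IL6Myc-3 and 1 lower in IL6Myc-4. Leaving out each library in turn gave 1 to 2 higher in IL6Myc-1 (2 without IL6Myc-2 replicate 1), 0 to 2 lower in IL6Myc-2 (0 without IL6Myc-2 replicate 2, 2 without IL6Myc-2 replicate 3 or IL6Myc-4 replicate 1), 0 to 1 higher in IL6Myc-2 (1 without IL6Myc-4 replicate 1) and 0 to 1 lower in IL6Myc-5 (1 without IL6Myc-5 replicate 2 or 3). Without TMM scaling the replication-dependent sum was 145 CPM in IL6Myc-2, 225 in IL6Myc-3 and 140 in IL6Myc-4, and the order of IL6Myc-2 and IL6Myc-1 (168) turned; the cause was not tested. Summing members that encode the same protein was not run, because no protein table was used here. Most replication-dependent genes are near or below 1 CPM, which limits what these libraries can show of single genes.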

Other observations

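Histone genes outside the naming rule added a few line differences. Of 8 tested, H2AW was lower in IL6Myc-4, at 0.914 ± 0.0627 CPM (SD, n = 3) against 2.83 to 3.18 CPM as means of the other lines (log2 difference -1.72, SE 0.15, by edgeR). H4F16, an H4 gene, was at 0.476 ± 0.0201 CPM in IL6Myc-4 and 1.63 ± 0.312 CPM in IL6Myc-1, with log2 differences of -1.06 (adjusted p = 0.00557) and 1.17 (adjusted p = 0.000301). The others were not called in any line. H2AX, whose protein is phosphorylated at DNA breaks, was at 42.2 to 72.6 CPM as line means, MACROH2A1 at 60.3 to 79.3 CPM, and CENPA, the centromeric H3, at 40.9 to 63.8 CPM.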
